A study of Mus musculus with 12 samples.

Results

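Interleukins are secreted signalling proteins through which the cells of a tissue and its resident immune cells instruct each other. Each acts on a receptor built from a binding chain and a shared signalling chain, and several pathways also carry secreted antagonists, decoy receptors or binding proteins that hold the ligand back. In the epidermis keratinocytes both send and receive these signals: cytokines of the interleukin-1 family are held as alarm signals, and receptors of the interleukin-17, interleukin-20 and interleukin-22 pathways shape barrier repair, whereas Langerhans cells and epidermal T cells depend on cytokines that keratinocytes make.

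The genes described here are those whose platform annotation symbol starts with Il and a digit. They number 73 of the 18193 genes that have a probe set assigned to a single gene, and each is read by its probe set of highest mean log2 value over the 12 arrays. By role they are 31 ligands, 33 receptor chains and 7 antagonists, decoys or binding proteins. The symbol rule also caught 2 genes that are neither cytokine nor receptor, the amino acid oxidase gene Il4i1 and Il1bos, a long non-coding RNA named for its place opposite Il1b.

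The study sorted keratinocytes from the back skin of mice by flow cytometry and measured 5 fractions on arrays. All mice carried the same transgenes, Rosa-tdTomato, K14-CreER, pTRE-H2B-GFP and K5-tTA, so that a keratin 5 promoter drives a histone-GFP label that doxycycline shuts off and that division dilutes. All were fed doxycycline at 1 g per kg of food for 2 weeks, were given 75 mg/kg tamoxifen once, and were killed 1 week afterwards in the second telogen, the resting phase of the hair cycle. No fraction came from untreated or label-free mice. The labels name the fractions BL, SL and GL, read here from knowledge of the study as basal, spinous and granular layer. BL (3 arrays each) and SL (2 arrays each) were split into LRC, read as label-retaining cells, and non-LRC, and GL has 2 arrays. For sex, age in weeks, sort gates and animals per array, the sources used here give nothing.

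Values are intensities on a linear scale, and a member is called above background on an array where it exceeds the level that 95% of 27 bacterial control probe sets stay under on that array, 22.4 to 42.6 units. Basal keratin and adhesion markers (7 of 7) and spinous markers (6 of 6) were above background on every array, and all 7 measured granular markers were so in GL. Levels did not follow the layer names throughout. By the limma tests described below, GL against SL had 4 basal markers lower and 1 higher (Cdh3, 1.35). It had 0 spinous markers called, and 2 granular markers higher and 1 lower (Tgm3, -1.96). The arrays fall into a pair of sets by the signal of BioB, a bacterial hybridisation control: 4 arrays (BL LRC 1, BL non-LRC 1 and both SL non-LRC) at 467 to 524 units and the other 8 at 2885 to 3931. In SL the array set and label retention coincide and, within that layer, cannot be told apart. In BL each fraction has 1 array of the low set and 2 of the high set.

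Receptor chains made up most of the members detected throughout the sorted epidermis. Of the 73 members, 27 (37.0%) were above background on all 12 arrays, 29 on 4 to 11, 9 on 1 to 3, and 8 on none. Of all 18193 genes 57.0% were above background on every array and 7.5% on none. The 27 comprised 19 of the 33 receptor chains, 5 of the 7 antagonists, decoys and binding proteins, and 3 of the 31 ligands, namely Il33, Il34 and Il1f9 (which encodes interleukin-36 gamma). The 8 never above background were the ligand genes Il1a, Il6, Il10, Il21 and Il25, the antagonist-like Il1f10, and the accessory receptor genes Il1rapl1 and Il1rapl2. For these the arrays give an upper bound and no level.

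**Figure D1:**
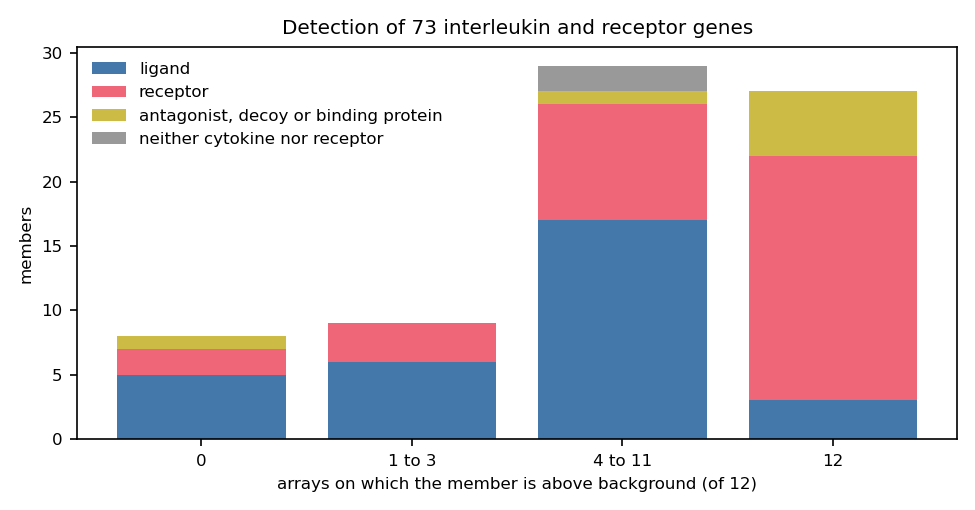
Number of members (y axis) by the number of the 12 arrays on which each is above background (x axis), coloured by role. Receptor chains make up 19 of the 27 members above background on all 12 arrays and ligands 3.

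Across the 5 fractions 22 of 73 members differed (limma F test with Benjamini-Hochberg adjustment over all genes, adjusted p under 0.05), a share of 30.1% beside 16.9% of all genes. They were 14 of the 27 members above background on every array and 8 of the other 46. By role they were 6 ligands, 12 receptor chains, 3 inhibitors and Il1bos. The lowest adjusted p values belonged to Il33 (3.17e-07), the decoy receptor Il1r2 (1.97e-06), the receptor chain Il20ra (7.48e-06) and the signal transducer Il6st (4.81e-05). In fits that each left out 1 array, 16 to 24 members passed. Whether arrays of a group come from separate animals is not in the labels, so each p-value is set against the spread of these arrays, which may be technical.

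**Figure D2:**
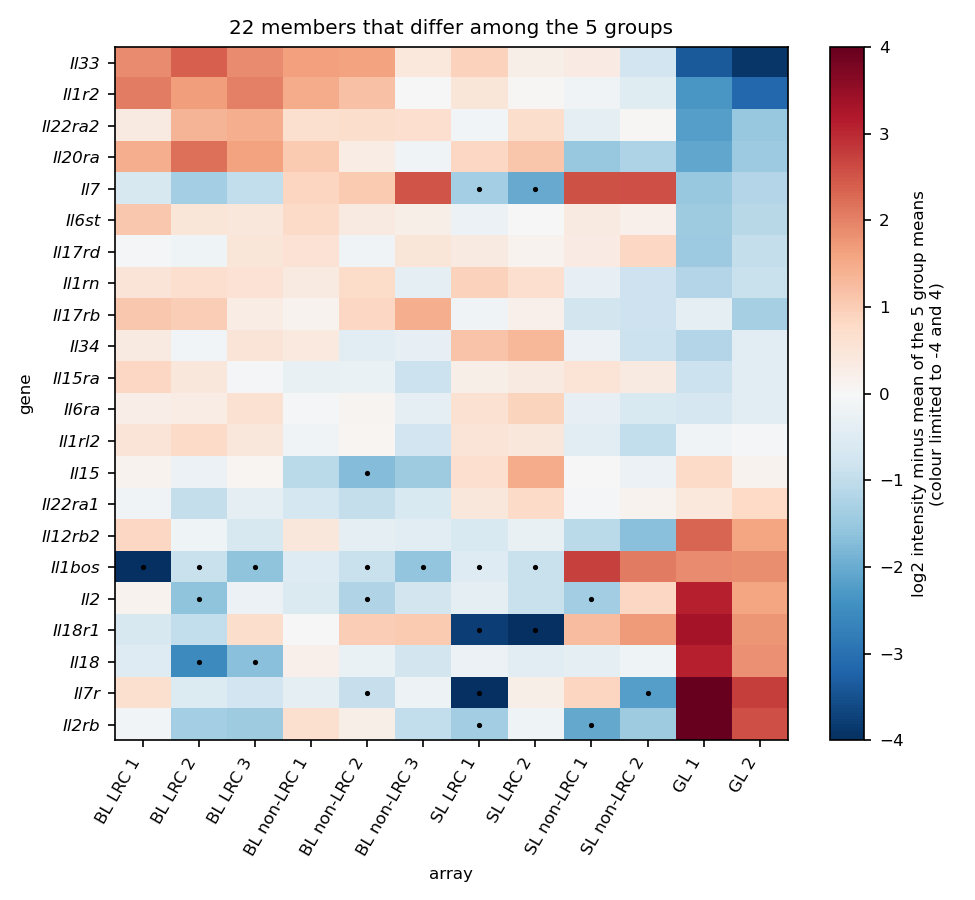
Log2 intensity of the 22 members that differ among the 5 groups (rows, sorted by GL minus the mean of the other arrays), each minus the mean of its 5 group means, on the 12 arrays (columns); black points mark values not above background. Il33 and Il1r2 are lowest on both GL arrays, and Il2rb and Il7r are highest there.

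Genes that fell from the basal to the outer layers are considered first. Il33, Il1r2 and Il20ra passed the test both from BL to SL and from SL to GL, and the promoter sequences of these are shown because no other member passed at both steps. Each is the 250 bases before a transcription start listed by RefSeq on GRCm38.p6, all on the plus strand: chr19:29924863-29925112 for Il33 (the first of 2 starts listed), chr1:40085843-40086092 for Il1r2 and chr10:19712337-19712586 for Il20ra. Capitals mark matches to any of 3 searched motifs, the AP-1 site TGANTCA, the STAT site TTCNNNGAA and TATAAA.
Il33: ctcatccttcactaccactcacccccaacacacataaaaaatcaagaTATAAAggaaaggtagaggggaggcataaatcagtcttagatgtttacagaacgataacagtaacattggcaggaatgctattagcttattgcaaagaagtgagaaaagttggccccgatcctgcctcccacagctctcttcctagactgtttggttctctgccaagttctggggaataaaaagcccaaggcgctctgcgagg
Il1r2: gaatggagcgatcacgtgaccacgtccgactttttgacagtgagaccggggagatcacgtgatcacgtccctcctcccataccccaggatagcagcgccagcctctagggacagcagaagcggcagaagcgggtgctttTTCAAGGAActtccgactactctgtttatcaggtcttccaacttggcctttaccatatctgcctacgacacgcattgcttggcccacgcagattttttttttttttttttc
Il20ra: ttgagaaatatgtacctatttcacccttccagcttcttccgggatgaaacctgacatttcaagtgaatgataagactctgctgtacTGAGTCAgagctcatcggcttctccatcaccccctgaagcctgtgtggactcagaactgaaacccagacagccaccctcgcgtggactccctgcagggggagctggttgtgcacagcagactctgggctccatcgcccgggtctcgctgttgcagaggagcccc
The Il33 stretch held 1 match, to TATAAA; that of Il1r2 held 1, to the STAT site; and that of Il20ra held 1, to the AP-1 site, so the 3 genes shared none of these motifs in this window. Both strands were searched, TGANTCA and TTCNNNGAA read the same on either strand, and no 2 matches overlapped. Of 32851 mouse promoter stretches of this length 6.7% held TGANTCA, 7.0% TTCNNNGAA and 12.4% TATAAA. Of 70 stretches belonging to 57 members with an entry, 20% (14) held TGANTCA, 11.4% (8) TTCNNNGAA and 14.3% (10) TATAAA. A match is a string of letters and shows no binding.

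Il33, an alarm cytokine kept in the nucleus of barrier cells, fell stepwise from BL to GL. Il33 read 2824, 3916 and 2767 in BL LRCs, 2343, 2300.5 and 1012 in BL non-LRCs, 1418 and 884 in SL LRCs, 937 and 448 in SL non-LRCs, and 73.3 and 50.8 in GL. Of the BL arrays BL non-LRC 3 alone reached into the SL range, and both GL arrays lay below all others. SL was 1.46 ± 0.27 log2 units below BL (moderated SE, n = 4 and 6, limma adjusted p = 0.00288), and GL was 3.80 ± 0.36 below SL (n = 2 and 4, adjusted p = 6.08e-06). The interleukin-1 decoy receptor gene Il1r2, whose product binds interleukin-1 without signalling, followed the same order. Il1r2 read 3216, 2477 and 3174 in BL LRCs, 2154, 1732 and 768 in BL non-LRCs, 1091 and 801 in SL LRCs, 698 and 554 in SL non-LRCs, and 153 and 88.8 in GL. Again BL non-LRC 3 reached down into the SL range, and the GL pair stood apart below it. The differences were -1.42 ± 0.25 for SL against BL (adjusted p = 0.00243) and -2.71 ± 0.34 for GL against SL (adjusted p = 9.1e-05).

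Il20ra, the binding chain for interleukin-20 and related cytokines, was lower in outer layers and also higher in LRCs. Il20ra read 1130.4, 1896 and 1251 in BL LRCs, 853, 497 and 370.1 in BL non-LRCs, 729 and 874 in SL LRCs, 143 and 175 in SL non-LRCs, and 97.3 and 149 in GL. The SL LRC pair overlapped BL non-LRCs, and SL non-LRCs lay close to GL. SL was 1.28 ± 0.25 below BL (adjusted p = 0.00498) and GL 1.56 ± 0.34 below SL (adjusted p = 0.00755). The second step came mainly from SL LRCs: the mean of GL lay 2.73 below SL LRCs and 0.40 below SL non-LRCs, as plain differences of mean log2 values. Its partner gene Il20rb did not pass in any comparison. Il20rb read 2463, 1987 and 2612 in BL LRCs, 2865, 2590.3 and 1625 in BL non-LRCs, 3518 and 3048 in SL LRCs, 2116 and 1933 in SL non-LRCs, and 1494 and 1946 in GL. Both SL LRC arrays lay above all others, and GL overlapped SL.

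In the interleukin-22 pathway the receptor was called between SL and BL and the soluble inhibitor between GL and SL. Il22ra1, the signalling receptor chain on epithelial cells, was higher in SL than BL by 0.94 ± 0.19 (adjusted p = 0.00553). Il22ra1 read 788, 448 and 689 in BL LRCs, 536, 449.5 and 576 in BL non-LRCs, 1187 and 1482 in SL LRCs, 834 and 963 in SL non-LRCs, and 1164 and 1535 in GL. No BL array reached the lowest SL array, and GL overlapped SL (difference 0.29, adjusted p = 0.586). Il22ra2, which encodes a soluble protein that binds interleukin-22 away from its receptor, was 1.91 ± 0.35 lower in GL than SL (adjusted p = 0.00199). Il22ra2 read 504, 996 and 1069 in BL LRCs, 613, 633 and 629 in BL non-LRCs, 364 and 636 in SL LRCs, 298 and 403 in SL non-LRCs, and 85.6 and 137 in GL. Between SL and BL it differed by -0.80 with an adjusted p of 0.0927, and arrays of these layers overlapped.

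Both chains of the interleukin-6 receptor were lower in GL than in SL. Il6st encodes gp130, the signalling chain shared by the interleukin-6 family, and Il6ra the chain that binds interleukin-6 itself. Il6st read 7009.6, 4622 and 4498 in BL LRCs, 5568, 4265 and 3869 in BL non-LRCs, 2779 and 3302 in SL LRCs, 4217 and 3767 in SL non-LRCs, and 1229.7 and 1521 in GL. The GL pair lay below all 10 other arrays, and the GL minus SL difference was -1.35 ± 0.20 (adjusted p = 0.000425). Il6ra read 6246, 6512 and 7946 in BL LRCs, 4988, 5707 and 4005 in BL non-LRCs, 8052 and 9674 in SL LRCs, 4151 and 3449 in SL non-LRCs, and 3324 and 3842 in GL. Here GL overlapped SL non-LRCs and differed from SL LRCs: the GL minus SL difference of -0.69 ± 0.17 (adjusted p = 0.0166) split into -1.30 against SL LRCs and -0.08 against SL non-LRCs. The second Il6ra probe set gave -0.22, and with the mean of both the call was lost (adjusted p = 0.196).

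Antagonist and receptor genes of other families were lower in GL as well. Il1rn encodes the interleukin-1 receptor antagonist, which occupies the receptor without signalling. Il1rn read 4492, 5051 and 4683 in BL LRCs, 4069.6, 5189.7 and 2374 in BL non-LRCs, 5913 and 4983 in SL LRCs, 2528 and 1767 in SL non-LRCs, and 1383 and 1705 in GL. GL lay below every SL array, by 1.14 ± 0.24 on average (adjusted p = 0.0067), and SL LRCs lay above SL non-LRCs. As plain differences of mean log2 values, GL was at -1.82 against SL LRCs and -0.46 against SL non-LRCs. Il15ra, whose product presents interleukin-15 to neighbouring cells, was 1.03 ± 0.26 lower in GL than SL (adjusted p = 0.0182). Il15ra read 1846, 1407 and 995 in BL LRCs, 852, 867 and 567 in BL non-LRCs, 1212 and 1318 in SL LRCs, 1505 and 1338 in SL non-LRCs, and 571 and 754 in GL. Il17rd, a receptor of the interleukin-17 group known as an inhibitor of growth factor signalling, was 1.63 ± 0.34 lower in GL (adjusted p = 0.00613), while its second probe set, also above background on all 12 arrays, gave 0.07 (adjusted p = 0.221 with the mean of both). Il17rd read 259.9, 245 and 385 in BL LRCs, 413, 253 and 384 in BL non-LRCs, 355 and 302 in SL LRCs, 349.8 and 493 in SL non-LRCs, and 99.9 and 141 in GL. For Il15ra and Il17rd the groups SL and GL did not overlap.

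In counts, SL against BL had 2 members higher and 3 lower, beside 2.83% and 2.2% of all genes (515 and 400), and GL against SL had 6 higher and 9 lower, beside 4.39% and 3.91% (799 and 711). As shares of the 73 members these are 2.74% and 4.11% for SL against BL, near the background, and 8.22% and 12.3% for GL against SL. The median difference over members was -0.11 for SL against BL and -0.04 for GL against SL, beside 0.002 and -0.03 over all genes. The remaining call of SL against BL was Il1bos. Il1bos read 1.29, 26.2 and 15.9 in BL LRCs, 34.2, 26.3 and 16.4 in BL non-LRCs, 34.1 and 26.1 in SL LRCs, 325 and 204 in SL non-LRCs, and 179.6 and 178 in GL. It was above background on both SL non-LRC and both GL arrays and on 1 other, BL non-LRC 1, so no size is given (adjusted p = 0.0411); that call was lost in 9 of 12 fits without 1 array (adjusted p up to 0.176), all but those leaving out a BL LRC array.

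**Figure D3:**
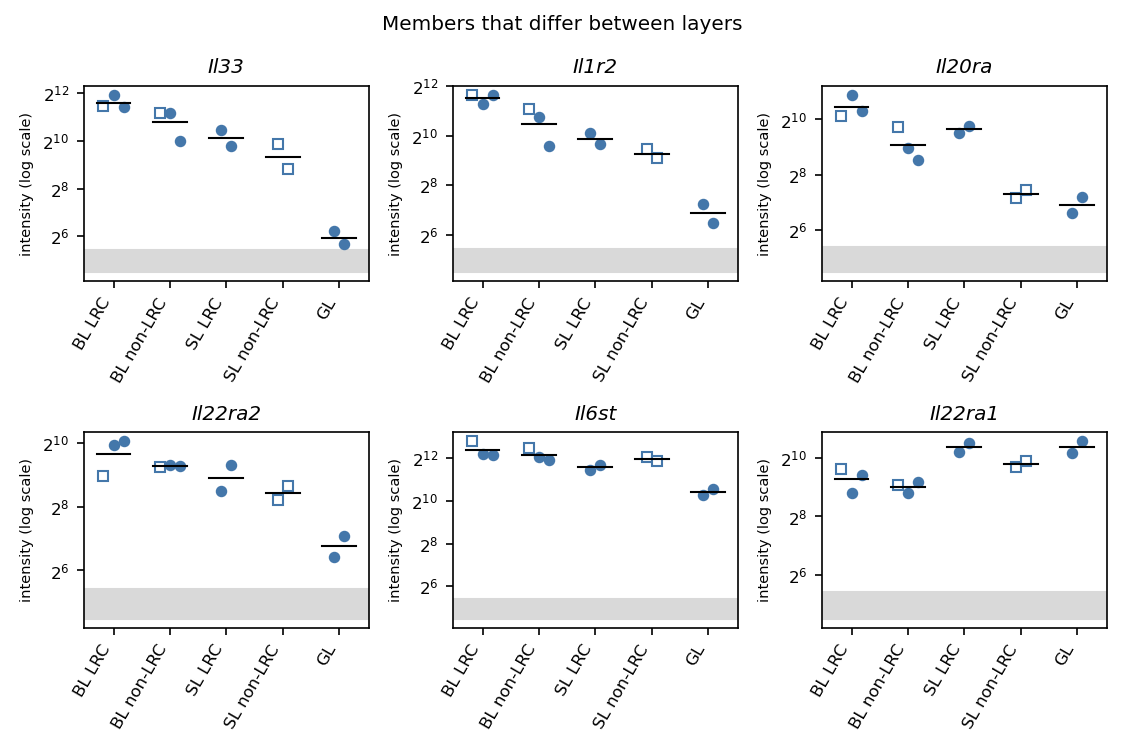
Intensity (log axis) of 6 members on each array by fraction; lines are group means of log2 values, filled circles are arrays of the high BioB set, open squares those of the low set, and the grey band spans the background levels of the 12 arrays. Il33 and Il1r2 step down from BL to GL, and Il22ra1 is higher in SL than in BL.

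Within array sets the layer differences kept their direction. Among high-set arrays, where SL LRCs are set against BL LRCs, the differences were -1.56 for Il33, -1.58 for Il1r2, -0.95 for Il20ra and 1.26 for Il22ra1. In the low set, SL non-LRCs against the single BL non-LRC array, they were -1.85, -1.79, -2.43 and 0.74. With 2 arrays a side in the high set, Il33, Il1r2 and Il20ra had adjusted p of 0.0739, 0.0643 and 0.249 there. Il1bos, not above background on any BL LRC or SL LRC array, had a limma adjusted p of 0.892 in the high set. For GL against SL, the high set alone, with SL LRCs as the other side, gave -4.20 for Il33, -1.15 for Il6st and 2.40 for Il12rb2, and Il15ra there had an adjusted p of 0.0563 (0.0787 with the array set as a term).

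The 6 members higher in GL than in SL were 4 receptor chains and 2 ligands. Il2rb, the receptor chain shared by interleukin-2 and interleukin-15, was 4.79 ± 0.66 log2 units higher than in SL (adjusted p = 0.000202). Il2rb read 100.4, 42.2 and 40.4 in BL LRCs, 169.9, 129 and 55.1 in BL non-LRCs, 41 and 95.5 in SL LRCs, 26.2 and 40.3 in SL non-LRCs, and 2431 and 644 in GL. Il7r, the interleukin-7 receptor chain of lymphocytes, was 4.79 ± 1.06 higher (adjusted p = 0.00891), or 3.49 higher with values under background raised to it. Il7r read 81.8, 35.7 and 30.8 in BL LRCs, 40.2, 27.3 and 44.9 in BL non-LRCs, 2.64 and 61.5 in SL LRCs, 94.8 and 11.3 in SL non-LRCs, and 896 and 355 in GL. Both were above background on only 2 of the 4 SL arrays, and GL 1 read above GL 2 for each. Il2, the T cell growth factor, was 2.81 ± 0.73 higher (adjusted p = 0.0237). Il2 read 77.2, 23 and 60.5 in BL LRCs, 46.8, 30.5 and 42 in BL non-LRCs, 53.9 and 37.7 in SL LRCs, 26.9 and 124 in SL non-LRCs, and 603 and 212 in GL. Il18, a cytokine of the interleukin-1 family that is processed by caspase-1, was 2.77 ± 0.68 higher (adjusted p = 0.0174). Il18 read 42.4, 10.2 and 18.9 in BL LRCs, 68.4, 50.1 and 36.4 in BL non-LRCs, 50.8 and 44.2 in SL LRCs, 45.3 and 53.8 in SL non-LRCs, and 518 and 212 in GL. In BL LRCs Il18 was at or under background on 2 of 3 arrays, and no array outside GL exceeded 68.4 units.

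Il18r1, which encodes the binding chain for interleukin-18, was higher in GL than SL (adjusted p = 0.00135), by an amount not given because both SL LRC arrays were under background. Il18r1 read 41, 32.2 and 103 in BL LRCs, 63.1, 125 and 130.5 in BL non-LRCs, 4.64 and 2 in SL LRCs, 148 and 209 in SL non-LRCs, and 643 and 215 in GL. Against SL non-LRCs alone GL was 1.08 higher as a plain difference of means. Il12rb2, a chain of the interleukin-12 receptor, was 2.87 ± 0.38 higher in GL (adjusted p = 0.000149). Il12rb2 read 972, 484 and 349 in BL LRCs, 742, 422 and 399 in BL non-LRCs, 361 and 441 in SL LRCs, 258 and 170.5 in SL non-LRCs, and 2731 and 1628 in GL. Unlike the other 5 it was above background on all 12 arrays. All 6 members higher in GL read higher on GL 1 than on GL 2. Il2ra, another interleukin-2 receptor chain, was above background on 6 arrays, both GL arrays among them (461.7 and 73.9), and did not pass (adjusted p = 0.340), nor did Il10ra (0.257), Il1b (0.266), Il18rap (0.445) or Il21r (0.824), which immune cells also use.

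Markers of immune cells moved in the same comparison. Of 11 measured T cell markers 7 were higher in GL than SL and 0 lower (median difference 4.02), and of 13 Langerhans cell and myeloid markers 10 were higher and 0 lower (median 3.83). Summed T cell marker intensity was 34046 on GL 1 and 11496 on GL 2, against 3558 to 5808 in SL and 5038 to 9896 in BL. Summed myeloid marker intensity was 70192 and 32079, against 1434 to 9589 in SL and 1661 to 3657 in BL. The T cell list also holds Thy1 and Cd247, which were not called in this comparison. Thy1 read 5220 and 1372 in GL and 3144 to 7216 in BL, and Cd247 756 and 958 in GL and 882 to 1386 elsewhere. The T cell receptor subunit gene Cd3e read 6784 on GL 1 and 1894 on GL 2, and at most 486 on the others. Cd207, the Langerhans cell lectin, read 995 and 403 in GL and was above background on 3 of the other 10 arrays. Gzmb (80.8 and 13.6 in GL) and Aif1 (1.5 and 25.4) were above background on 2 arrays each. Melanocyte markers had 2 of 6 higher (Dct and Tyrp1), and none of 6 mast cell, 6 fibroblast and 5 endothelial markers was called in this comparison. The part of these cells in the values of Il2rb, Il7r, Il2, Il18, Il18r1 and Il12rb2 was not tested, and in sorted bulk RNA more cells of a type and more RNA per cell cannot be told apart.

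**Figure D4:**
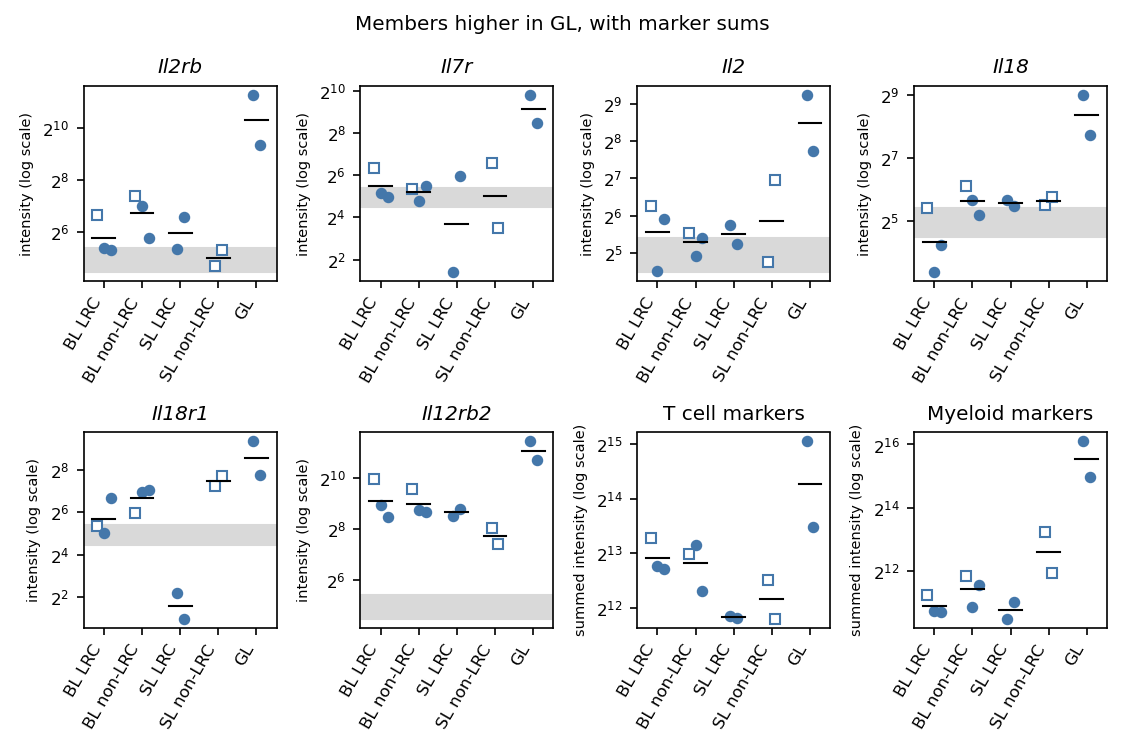
Intensity (log axis) by fraction for the 6 members higher in GL than in SL, and summed intensity of the T cell and of the Langerhans cell and myeloid markers; symbols as in the plot of layers (filled circles high BioB set, open squares low set, lines group means, grey band background). GL 1 lies above GL 2 in all 8 panels.

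GL rests on 2 arrays, and GL 1 weighed most. Without GL 1, 5 of the 15 calls of GL against SL remained, Il33, Il1r2, Il6st, Il12rb2 and Il2rb. The other 10 then had adjusted p of 0.062 (Il22ra2), 0.0674 (Il18r1), 0.106 (Il17rd), 0.124 (Il1rn), 0.142 (Il20ra), 0.156 (Il7r), 0.203 (Il6ra), 0.227 (Il15ra), 0.269 (Il18) and 0.326 (Il2). Without GL 2 Il6ra alone was lost (0.0534). Leaving out SL LRC 2 lost Il6ra (0.0602) and Il2 (0.0596), and leaving out SL non-LRC 1 lost Il6ra (0.0597), Il15ra (0.0541) and Il2 (0.0751).

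Label retention was accompanied by lower Il7 in both layers. Il7 encodes interleukin-7, a survival factor that keratinocytes supply to T cells of the skin. Il7 read 61.8, 37.3 and 48.7 in BL LRCs, 174, 199 and 543 in BL non-LRCs, 37.4 and 23.9 in SL LRCs, 556 and 569 in SL non-LRCs, and 33.8 and 42.2 in GL. BL non-LRCs and SL non-LRCs lay between 174 and 569, and all LRC arrays and both GL arrays lay at 61.8 or below. In BL, LRCs were 2.46 ± 0.51 log2 units lower (n = 3 and 3, adjusted p = 0.0185). In SL, where neither LRC array was above background, they were at least 15.1-fold lower (n = 2 and 2, adjusted p = 0.000945). The second Il7 probe set, above background on 6 arrays, was lower in LRCs of both layers too; both of its SL LRC readings and 2 of its 3 BL LRC readings were under background, so no size is given.

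Sebaceous and infundibular markers moved with Il7 in these comparisons. Of the 8 such markers, 8 were lower in BL LRCs and 7 in SL LRCs. Their summed intensity was 10953 to 13640 in BL LRCs against 29680 to 60095 in BL non-LRCs, and 23639 to 25310 in SL LRCs against 60495 to 70723 in SL non-LRCs. In GL it was 42709 and 42483, where Il7 read 33.8 and 42.2, but single markers differed there: against SL 1 was higher (Plet1) and 2 were lower (Scd1 and Pparg). Pparg, a regulator of sebocyte differentiation, read 10.9 to 57.8 in LRCs of both layers, 239.8 to 2440 in non-LRCs, and 10.5 and 32.2 in GL, an order like that of Il7. Mgst1, Krt79, Plet1, Lrig1, Gata6 and Cidea did not share that order. Each read higher on both GL arrays than on any LRC array, as Mgst1 at 2613 and 5738 against at most 577. The part of follicular or sebaceous cells in the Il7 values was not tested.

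Il18r1 was the other member lower in LRCs, in SL only by call: its SL LRC arrays read 4.64 and 2.00, under background, against 148.5 and 209 in SL non-LRCs (at least 4.72-fold lower, adjusted p = 0.000523). With values under background raised to it the call was lost (adjusted p = 0.0585). In BL its difference was -0.97 and its arrays overlapped. In SL LRCs 3 of 13 myeloid markers (Csf1r, H2-Aa and Cd74) were lower too, with summed intensity of 1434 to 2082 against 3924 to 9589, and 0 of 11 T cell markers passed. Also lower there were 2 of 6 melanocyte markers (Tyrp1 and Dct) and 7 of 8 sebaceous and infundibular markers, beside 2.7% of all genes. The part of any of these cells in the Il18r1 values was not tested.

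In the other direction 5 members were higher in SL LRCs than SL non-LRCs, 4 of them receptors or antagonists. Il20ra rose by 2.33 ± 0.39 (adjusted p = 0.0023), the SL LRC pair lying above the SL non-LRC pair, and in BL by 1.37 ± 0.32 (adjusted p = 0.0397), its 3 LRC arrays lying above all 3 non-LRC arrays. Il6ra rose by 1.22 ± 0.20 (adjusted p = 0.00165) and Il1rn by 1.36 ± 0.28 (adjusted p = 0.00968). Il1rl2, the receptor for interleukin-36 cytokines, rose by 1.18 ± 0.26 (adjusted p = 0.0146, and 0.0751 without probe sets marked _x_at or _s_at, its own being of the latter kind). Il1rl2 read 2604, 3073 and 2484 in BL LRCs, 1663, 1938 and 1076 in BL non-LRCs, 2603 and 2481 in SL LRCs, 1361 and 926 in SL non-LRCs, and 1655 and 1777 in GL. GL lay between the LRC and non-LRC levels of SL. Il34, a ligand of the Csf1 receptor on which Langerhans cells depend, rose by 1.80 ± 0.41 (adjusted p = 0.0179). Il34 read 390.0, 284 and 438 in BL LRCs, 401, 220.3 and 242 in BL non-LRCs, 675 and 763 in SL LRCs, 257 and 166 in SL non-LRCs, and 135 and 226 in GL. In BL the Il34 arrays of LRCs and non-LRCs overlapped. Spinous keratinocyte markers were higher in the same fractions, 4 of 6 in SL LRCs (summed intensity 154714 to 167164 against 94962 to 108913) and 3 of 6 in BL LRCs (110108 to 132278 against 73919 to 96856), and their part in these results was not tested.

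**Figure D5:**
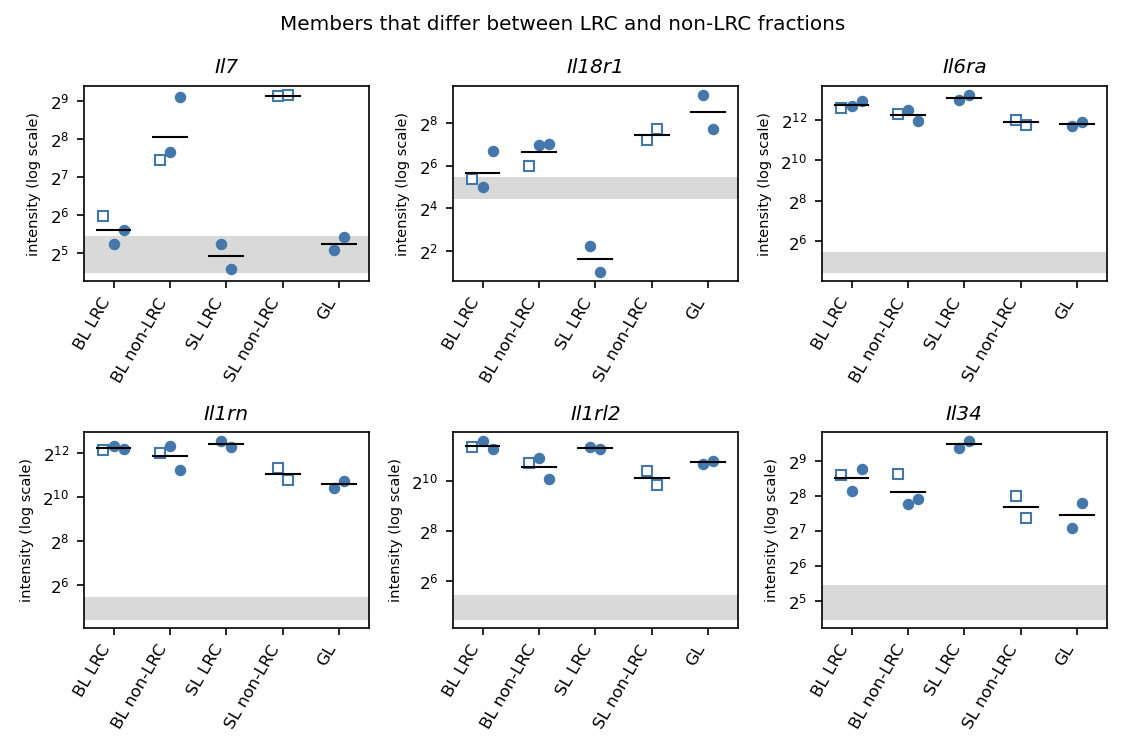
Intensity (log axis) by fraction of 6 members called between LRCs and non-LRCs in SL; symbols as in the plot of layers (filled circles high BioB set, open squares low set, lines group means, grey band background). Il7 lies between 174 and 569 in both non-LRC fractions and at 61.8 or below elsewhere.

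All 5 of these members also had a positive mean difference in BL, though only Il20ra passed there. The median difference in BL was itself positive, at 0.30 over all members and 0.05 over all genes. In BL 6 members above background on every array had an unadjusted limma p under 0.05 and arrays that did not overlap, but did not pass the adjustment. All 6 read higher in LRCs: Il1rl2 at 0.84 ± 0.21 (adjusted p = 0.0623), Il1r1 at 0.81 ± 0.22 (0.0898), Il15ra at 0.88 ± 0.24 (0.095), Il1r2 at 1.05 ± 0.32 (0.15), Il6ra at 0.50 ± 0.16 (0.176) and Il33 at 0.83 ± 0.34 (0.342). How many of all genes met these conditions was not counted. At an unadjusted limma p under 0.05 alone, 8 members were higher and 2 lower in BL LRCs, beside 960 and 1066 of all genes. The second Il15ra probe set, above background on all 12 arrays, overlapped, at 270, 250 and 385 in BL LRCs and 214, 446 and 281 in BL non-LRCs. That of Il1rl2 overlapped too (859, 1169 and 725 against 819, 606 and 356), and that of Il6ra did not. Il1r1 encodes the signalling receptor for interleukin-1, and its other probe set was never above background. Il1r1 read 1214, 1774 and 1133 in BL LRCs, 842, 782 and 693 in BL non-LRCs, 1490.0 and 1133 in SL LRCs, 1049 and 762 in SL non-LRCs, and 1072 and 901 in GL. Under the same conditions in SL, Il20rb at 0.70 ± 0.25 (adjusted p = 0.147), Il17rc at 0.70 ± 0.23 (0.112) and Il21r at 1.58 ± 0.55 (0.126) did not pass, their LRC arrays lying above the non-LRC arrays. The second Il17rc probe set, above background on all 12 arrays, overlapped (244 and 329 against 34.3 and 379). Without the limit on p, further such members were higher in SL LRCs, as Il12rb2 (0.93), or lower, as Il17re (-0.49). At an unadjusted limma p under 0.05 alone, 9 members were higher and 4 lower in SL LRCs, beside 1378 and 1692 of all genes. Among these members Il11, which was higher, and Il1bos and Il10rb, which were lower, also had arrays that did not overlap. They did not pass (limma adjusted p = 0.253, 0.14 and 0.246) and are not listed above because they were not above background on all 12 arrays.

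In counts, BL LRCs against BL non-LRCs had 1 member higher and 1 lower, beside 0.308% and 1.23% of all genes (56 and 223), each being 1.37% of members. SL LRCs against SL non-LRCs had 5 higher (6.85% of members, beside 1.49%) and 2 lower (2.74%, beside 2.7%). The median member difference was 0.30 in BL and -0.07 in SL, beside 0.05 and -0.001 over all genes. A test of whether the label effect differed between layers (SL minus BL, limma interaction) called 0 of 73 members, as it called 0% of all genes. At an unadjusted p under 0.05 it had 5 members above and 3 below 0, and the smallest member adjusted p was 0.212, that of Il18r1. At this number of arrays no difference between layers was detected for any member, and equal label effects were not shown.

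The label calls in BL depended on single arrays, and some of those in SL on single arrays or the array set. Of the BL calls, Il7 was lost (adjusted p in parentheses) on leaving out BL LRC 2 (0.084), BL LRC 3 (0.0681) or BL non-LRC 3 (0.15), and with the high set alone (0.106). Il20ra was lost on leaving out any of the BL LRC arrays (0.0571, 0.215 and 0.109 for arrays 1, 2 and 3), the non-LRC arrays 2 or 3 of BL (0.105 and 0.211), or either SL LRC array (0.0593 and 0.0594). Within the high and the low set, Il7 in BL differed by -2.95 and -1.49, and Il20ra by 1.84 and 0.41. In SL, with the array set as a term estimated through BL, Il18r1 (adjusted p = 0.0045), Il7 (0.0155), Il20ra (0.0173), Il6ra (0.0282) and Il34 (0.0349) passed, while Il1rn (0.0705) and Il1rl2 (0.0867) did not. Leaving out SL LRC 1 lost Il1rn (0.108), Il1rl2 (0.111) and Il34 (0.0963). Leaving out SL LRC 2 lost Il1rl2 (0.0773) and Il34 (0.126), and leaving out SL non-LRC 2 lost Il1rn (0.152), Il1rl2 (0.204) and Il34 (0.194).

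A pair of members differed among the 5 fractions by the F test but in no single comparison. Il15, the cytokine that Il15ra presents, had an adjusted F-test p of 0.0253. Il15 read 101, 77 and 96.5 in BL LRCs, 43, 27.2 and 33.4 in BL non-LRCs, 143 and 251 in SL LRCs, 90.4 and 77.3 in SL non-LRCs, and 153 and 100.5 in GL. Each BL non-LRC array lay below every other array. Il17rb, a receptor chain for Il25, had an adjusted F-test p of 0.0368. Il17rb read 299, 282 and 173 in BL LRCs, 155, 252 and 389.8 in BL non-LRCs, 128 and 161 in SL LRCs, 84.8 and 79.3 in SL non-LRCs, and 111 and 56.2 in GL. Its BL arrays lay at 155 or above and its SL and GL arrays at 161 or below, with a difference of -1.18 ± 0.35 between SL and BL (adjusted p = 0.0623).

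Several receptors above background throughout did not pass any test. Il13ra1 encodes a chain that binds interleukin-13 and pairs with the product of Il4ra. Il13ra1 read 6544, 4542 and 6971 in BL LRCs, 7389, 5319 and 5609 in BL non-LRCs, 5331 and 4774 in SL LRCs, 5614 and 5452 in SL non-LRCs, and 3533 and 4908 in GL. Il4ra read 748, 568 and 518 in BL LRCs, 799, 756 and 373 in BL non-LRCs, 321 and 535 in SL LRCs, 528 and 605 in SL non-LRCs, and 493 and 462 in GL. For both genes BL LRCs overlapped BL non-LRCs and GL overlapped SL. The interleukin-17 receptor is built from a common chain, Il17ra, and partners such as Il17rc for interleukin-17A and Il17re for interleukin-17C. Il17ra read 3617, 2899.6 and 3062 in BL LRCs, 3092, 3502 and 1888 in BL non-LRCs, 3932 and 2338 in SL LRCs, 2598 and 2353 in SL non-LRCs, and 1965 and 1851 in GL. Il17rc read 1089.9, 1394 and 1290.0 in BL LRCs, 1384, 1797 and 1309 in BL non-LRCs, 1627 and 1971 in SL LRCs, 1138 and 1073 in SL non-LRCs, and 849.9 and 1069 in GL. Il17re read 794, 1139 and 1026 in BL LRCs, 857, 1394 and 1187 in BL non-LRCs, 682 and 610.2 in SL LRCs, 826 and 989 in SL non-LRCs, and 602 and 641 in GL. In GL the 2 arrays of Il17ra and of Il17rc lay below all SL arrays without passing (-0.52 ± 0.24, adjusted p = 0.218, and -0.56 ± 0.20, adjusted p = 0.103). By the F test Il17rc and Il17re came nearest to the threshold, with limma F-test adjusted p values of 0.0512 and 0.0638. Il1rap encodes the accessory chain that interleukin-1, interleukin-33 and interleukin-36 receptors share (limma F test, adjusted p = 0.0773). Il1rap read 558, 909 and 884 in BL LRCs, 558, 678 and 683 in BL non-LRCs, 474 and 641 in SL LRCs, 344 and 439.6 in SL non-LRCs, and 391 and 449.5 in GL. Its BL arrays lay at 558 or above and its SL and GL arrays between 344 and 641.

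Among ligands not yet named, Il16, which acts through CD4, was above background on 11 arrays, at 76.3 to 223 units, and Il1f9 on all 12, at 114 to 386. Several others were near background. Il17a, Il20 and Il23a were each above background on 2 arrays, Il3, Il5 and Il31 on 1, and Il4 on 6. Il1b, the classical inflammatory interleukin-1 cytokine, was above background on 8 arrays and never over 104 units. The genes of the interleukin-36 agonists Il1f6 and Il1f8 were above background on 9 and 10 arrays, at up to 67.8 and 97.8 units, and their antagonist gene Il1f5 on all 12, at 99.3 to 417 units. None of these passed any test.

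Of the lists of pathway genes, the F test called 4 of 15 feedback inhibitors, 2 of 19 interleukin-1 and Toll-like receptor signalling genes, 6 of 12 inflammasome and processing genes and 9 of 20 partner genes, beside 16.9% of all genes. It called 0 of 10 Janus kinase and STAT genes (limma; 1 at an unadjusted p under 0.05). In single comparisons 1 of these was called, Stat5a in GL against SL (-0.71 ± 0.21, adjusted p = 0.0479, lost in 10 of 12 fits without 1 array, up to 0.411 without GL 1). Of 15 feedback inhibitors Socs2 was called lower in BL LRCs (adjusted p = 0.0217, above background on 7 arrays, lost in 5 of 12 fits without 1 array, up to 0.104 without BL LRC 3). That call also rested on the probe set, with 0.802 for the mean of all its probe sets and 0.195 without those marked _x_at or _s_at. Socs7 (-0.87 ± 0.17, adjusted p = 0.00373) and Ptpn6, a phosphatase of blood cells (1.61 ± 0.34, adjusted p = 0.00672), were called in GL against SL, with 0.0617 and 0.219 without GL 1. Of 19 interleukin-1 and Toll-like receptor signalling genes 2 were higher in SL LRCs, beside 1.49% of all genes. Tollip, an inhibitory adaptor, was 1.19 ± 0.22 higher (adjusted p = 0.00507; 0.054 without SL LRC 2, 0.109 without SL non-LRC 2 and 0.0601 with the array set as a term). Ikbkb, a kinase of the NF-kappaB pathway, was higher there by 1.07 ± 0.29 (adjusted p = 0.0449). On leaving out arrays singly, 7 of 12 fits did not call it, with 0.239 on omission of SL non-LRC 2, and its adjusted p was 0.512 with the array set as a term.

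Inflammasome and processing genes had 3 of 12 members higher in GL than SL, beside 4.39% of all genes, and no call lower, beside 3.91%. Nlrp10, an epidermal relative of the inflammasome sensors, rose by 2.29 ± 0.37 (adjusted p = 0.000799), and Casp1, the protease that processes interleukin-1 beta and interleukin-18, by 1.54 ± 0.28 (adjusted p = 0.00241, and 0.0644 without GL 1). Capn2 was the third (1.30 ± 0.34, adjusted p = 0.0267, and 0.135 without GL 1, 0.178 without GL 2, 0.0724 without SL LRC 2 and 0.0848 without SL non-LRC 1). Capn2, a calpain, fell in LRCs of both layers, by 1.53 ± 0.32 in BL (adjusted p = 0.0214) and by 1.98 ± 0.40 in SL (adjusted p = 0.00834). These calls were lost without BL LRC 2 (0.104) or BL non-LRC 3 (0.134) in BL, and without SL LRC 2 (0.076) or SL non-LRC 2 (0.128), or with the array set as a term (0.0813), in SL. Panx1, a membrane channel that releases ATP, was 1.73 ± 0.29 higher in SL LRCs (adjusted p = 0.00257, 0.0581 without SL non-LRC 2 and 0.0564 with the array set as a term), and P2rx7, an ATP receptor, fell by 1.54 ± 0.30 in BL LRCs (adjusted p = 0.0119, and 0.0734 without BL LRC 3 or 0.0863 without BL non-LRC 3). Between SL and BL, Panx1 was lower (-0.89 ± 0.19, adjusted p = 0.00955, and 0.0595 without SL non-LRC 2 or 0.867 in the high set alone). Pycard, the inflammasome adaptor, was higher (0.48 ± 0.12, adjusted p = 0.0224), a call lost on leaving out BL LRC 2 (0.062), either SL LRC array (0.0952 and 0.0773) or SL non-LRC 1 (0.157).

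Partner genes without an Il symbol had 4 of 20 higher and 3 lower in GL than SL, beside 4.39% and 3.91% of all genes (median 0.44, beside -0.03 over all genes). In SL LRCs 2 of the 20 were lower, Csf1r and Ifnar2, beside 2.7% of all genes. Ifnar2, a chain of an interferon receptor, differed by -2.43 ± 0.45 (limma adjusted p = 0.00523). Its adjusted p was 0.162 with the array set as a term and 0.272 with the mean of all its probe sets. Csf1r, the receptor of Il34, read 5081 and 1941 in GL and under 384 units on every other array (adjusted p = 7.5e-05). Csf1, its other ligand, was 0.96 ± 0.23 higher in SL than BL (adjusted p = 0.0179, and 0.225 with the mean of all its probe sets) and 1.55 ± 0.30 lower in GL than SL (adjusted p = 0.00377). The first call was lost without SL LRC 1 (0.105) or without array 1 (0.0554) or 2 (0.079) of SL non-LRCs, and the second without GL 2 (0.109). Tslp, an epithelial cytokine of allergic inflammation whose receptor includes the Il7r chain, was lower in GL than SL (-2.35 ± 0.48, adjusted p = 0.00512, and 0.0888 without GL 2). Ifngr1, a chain of the interferon-gamma receptor, was lower as well (-1.01 ± 0.19, adjusted p = 0.00294, and 0.0726 without GL 1).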

How the data were processed

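The deposited values are intensity values on a linear scale, 1 column per array; recomputed here, the authors had scaled each array to a 2% trimmed mean of 500.0 over 45101 probe sets, with a lowest value of 1. The summarisation software is not given in the sources used here. RNA was amplified and biotin-labelled with NuGEN kits, per the labels' protocols. Here log2 was taken with nothing added, and p-values come from limma 3.58.1 in R 4.3.3: 1 linear model of 5 group means over 12 arrays, empirical Bayes moderation that lets the variance follow mean intensity, and a threshold of 0.05 after Benjamini-Hochberg adjustment across 18193 genes. Probe sets naming several genes (932) or none (9160) were left out, 3 of the former naming an interleukin gene. Of the 73 members 27 have several probe sets. All 73 matched a RefSeq gene by identifier (GRCm38.p6, names only), with 0 symbols changed. Intensities are not compared between genes, since probe sets differ in response. Where a side was never above background, the bright side's mean is set against the background of the dim arrays, giving "at least". Bounds, errors and p-values are limited by 2 or 3 arrays per group.

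Members, gene lists and comparisons were chosen with earlier results of these data known. Values on every array are given for members called in any test and for the 20 of highest mean log2 among those above background on all 12 arrays. Differences that missed the threshold are listed for members above background on all 12 arrays. They needed an unadjusted p under 0.05 and arrays that did not overlap. The condition on background was added after values were seen. Some missed differences outside these conditions are given too, as for Il22ra2, Il17rb, Il22ra1, Il18r1, Il12rb2 and Il17re. Of the lists, up to 4 called genes of smallest p are named. The fit was tested on simulated data with known changes. Alternatives are given in the closing section. Figures used Python 3.11.15 and matplotlib 3.10.9.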

Additional observations from a re-analysis of the deposited data

How the results depend on the processing

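Of 29 calls of a member in a comparison, all kept their direction under all alternatives run, 6 kept the call under every one, and 78 of 660 refitted values lost it. Without the mean-variance trend the number of members called became 14 in place of 22 among the 5 groups, 0 in place of 2 in BL, 2 in place of 7 in SL, 1 in place of 5 for SL against BL (0 of the 5 shared) and 9 in place of 15 for GL against SL; the cause was not tested. With the 8 arrays of the high BioB set alone, 1 member was called in BL and 2 for SL against BL, from fewer samples; it holds no SL non-LRC array, so the SL label comparison and the interaction could not be fitted. Median centring left 1 in BL (Il20ra had an adjusted p of 0.103) and lost Il1rl2 (0.0643) and Il34 (0.0547) in SL, and the mean of all probe sets of a gene gave 8 for SL against BL. Leaving out 1 array at a time gave 16 to 24 members among the 5 groups, 0 to 2 in BL, 4 to 8 in SL, 4 to 7 for SL against BL, 5 to 17 for GL against SL and 0 to 0 for the interaction. Il1r1 in BL, which was not called, turned to -0.17 under the mean of all probe sets, a mean that takes in a probe set never above background. With the replicate block 4 members were called in BL in place of 2; same-numbered BL arrays correlated at 0.054 to 0.111 in their deviations from group means, so the numbers were not taken as pairs. Quantile normalisation, 16 added before log2, values raised to background, a filter on genes above background on at least 2 arrays, omission of _x_at and _s_at probe sets and the array-set term each kept the 6 counts within 1.5 times.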
